A study of Mus musculus with 7 samples.

Results

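The genes described here are those of cholesterol synthesis and its control (the sterol arm) and of fatty acid synthesis, triglyceride storage, lipolysis and oxidation (the fatty acid and storage arm). They were chosen from a list of 45 gene names, and their members are all probe sets of the array table whose single gene symbol in the platform annotation is on the list. This gave 104 probe sets of 44 genes, of 45101 probe sets and 18193 genes in all, with 20 genes in the sterol arm and 24 in the fatty acid and storage arm. Acsl1 was not analysed here.

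The arrays hold amplified RNA of sorted bone marrow cells. The mice were wild type C57Bl/6J animals, described in the labels as young adults and in the design text as 6 to 12 weeks old, without any treatment. Both sorted populations were CD45- and Lin-, a gate meant to exclude cells with surface leukocyte and lineage antigens. The CD54+CD31-BP1+ cells carry the label bone marrow stromal cells (4 arrays, stromal 1 to 4). The CD54-CD31+ cells carry the label bone marrow endothelial cells (3 arrays, endothelial 1 to 3). Each array received RNA of 1800 to 10000 cells on an Affymetrix mouse expression chip. Whether replicates are separate animals or separate sorts is not given in the labels. A p-value here therefore measures only how these arrays spread, which may be technical. Levels are given as deposited, as log2 expression, and a difference is stromal minus endothelial on that log2 scale. Less RNA per cell and fewer cells that make it cannot be told apart in sorted bulk samples.

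Cholesterol is built from acetyl-CoA through mevalonate, isoprenoid phosphates and squalene to lanosterol, which later enzymes trim to cholesterol. The SREBP transcription factors switch on these genes, and those of fatty acid synthesis, when membrane sterol is low: SCAP carries SREBP to the Golgi for cleavage, and the INSIG proteins hold SCAP in the endoplasmic reticulum when sterol is plentiful. Fatty acids made from citrate-derived acetyl-CoA are elongated, desaturated and joined to glycerol as triglyceride, which lipases release again for oxidation in mitochondria. In bone marrow, the reticular stroma is related to the cells that give rise to marrow adipocytes, which store triglyceride in bulk.

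The labelled cell types were checked against marker genes. All 9 reticular stroma markers, such as Cxcl12, Lepr and Foxc1, were higher on the stromal arrays. Among the 9 are Icam1 and Enpep, which encode the sorting antigens CD54 and BP1, so the sort itself set their direction. Of the 9, 3 (Foxc1, Icam1 and Lepr) passed the filter for dim genes through the stromal arrays alone. Of 11 endothelial markers 6 were tested. Of these 5, among them Pecam1, were lower on the stromal than on the endothelial arrays, and 1 was not called. The mean of the 11 was 5.23 to 5.47 over stromal 1 to 4, against 7.54 to 7.74 over endothelial 1 to 3. Pecam1 encodes the sorting antigen CD31 and passed the filter through the endothelial arrays alone, so its direction does not check the label. The defining genes Cdh5, Emcn, Tek, Tie1 and Robo4 lay below the filter for dim genes. All 9 megakaryocyte and platelet markers tested were lower on the stromal arrays, where their mean level lay between 5.75 and 8.45 and was highest on stromal 4, against 13.50 to 13.84 on the arrays labelled endothelial. The mean of 8 pan-leukocyte markers was 5.48 to 7.69 over stromal 1 to 4, against 11.06 to 11.51 over endothelial 1 to 3. The mean of 9 neutrophil precursor markers was 10.09, 10.00, 7.84 and 8.51 on stromal 1 to 4, against 11.86, 12.55 and 9.54 on endothelial 1 to 3. Such transcripts were thus found on arrays of both populations, and stromal 1 and 2 exceeded endothelial 3. Every difference below is therefore one between the arrays labelled stromal and a population richer in megakaryocyte and pan-leukocyte transcripts. The part that transcripts of blood cells play in it, on either side, was not tested. Of 9 adipocyte markers 7 were matched and 4 tested. Adipoq and Aqp7 were higher on the stromal arrays, and Aqp7 passed the filter through these arrays alone. Fabp4 (1.15, adjusted p = 0.151) and Retn (-0.46, adjusted p = 0.0633) were not called, and Lep, Cidec and Pck1 lay below the filter. Endothelial 2 and endothelial 3 also differed from the other 5 arrays in the spiked-in hybridisation controls (11.33 and 11.37, against 9.51 to 9.75).

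For each gene the probe set of highest mean stood for the gene. It was tested where 3 or more arrays exceeded the 40th percentile of their own values. A gene is called higher or lower here when limma gave a Benjamini-Hochberg adjusted p under 0.05 over all 13995 genes tested and the difference was at least 1. Of the 44 members 43 were tested, and Lipe, which encodes hormone-sensitive lipase, lay below the filter in both populations (5.28 ± 0.23, SD, n = 4, on the stromal arrays, against 5.68 ± 0.10, n = 3, on the endothelial ones).

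In both arms more members were called higher than lower on the stromal arrays. In the sterol arm 8 of 20 members were called higher and none lower, and in the fatty acid and storage arm 11 of 23 were called higher and 2 lower. Over all genes tested 30.9% were called higher and 16.1% lower, so the shares of members called higher, 40% in the sterol arm and 47.8% in the other arm, stand beside a background that is itself large. Called in either direction were 21 of 43 members, a share near the 47.0% of all genes tested. The values of the populations did not overlap in 11 of 20 sterol members and 14 of 23 fatty acid and storage members, against 68.4% of all genes tested. The median difference was 0.88 in the sterol arm and 0.96 in the fatty acid and storage arm, against 0.19 over all genes tested. Positive differences, called or not, were found in 17 of 20 and in 17 of 23 members. The 4 members with the largest differences were Sc5d, Ebp, Insig1 and Scap in the sterol arm, and Fads3, Scd2, Fads1 and Gpam in the other arm. A further normalization moves all genes: the median over all genes was -0.13 after a second quantile normalization and -0.02 after cyclic loess. The arm medians relative to those values were 0.59 and 0.48 for the sterol arm, against 0.69 as deposited, and 0.69 and 0.58 for the fatty acid and storage arm, against 0.77 as deposited.

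**Figure D1:**
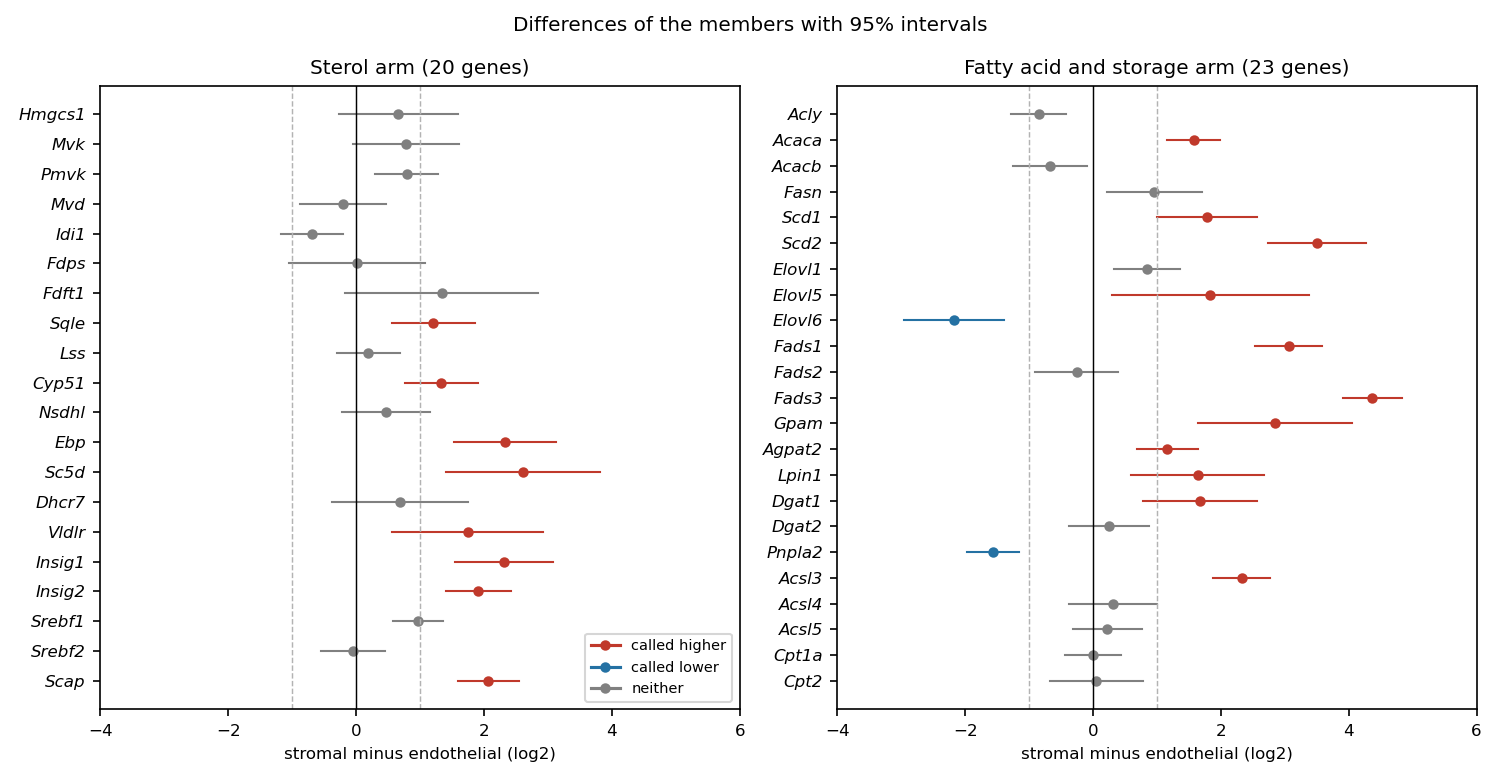
Difference between the stromal and the endothelial arrays for each tested member (horizontal axis, stromal minus endothelial, log2), with its 95% interval from limma, in pathway order from top to bottom. Red marks the 8 and 11 genes called higher, blue the 2 called lower and grey the others. Dashed lines stand at -1 and 1, and the range runs from Elovl6 at -2.17 to Fads3 at 4.37.

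**Figure D2:**
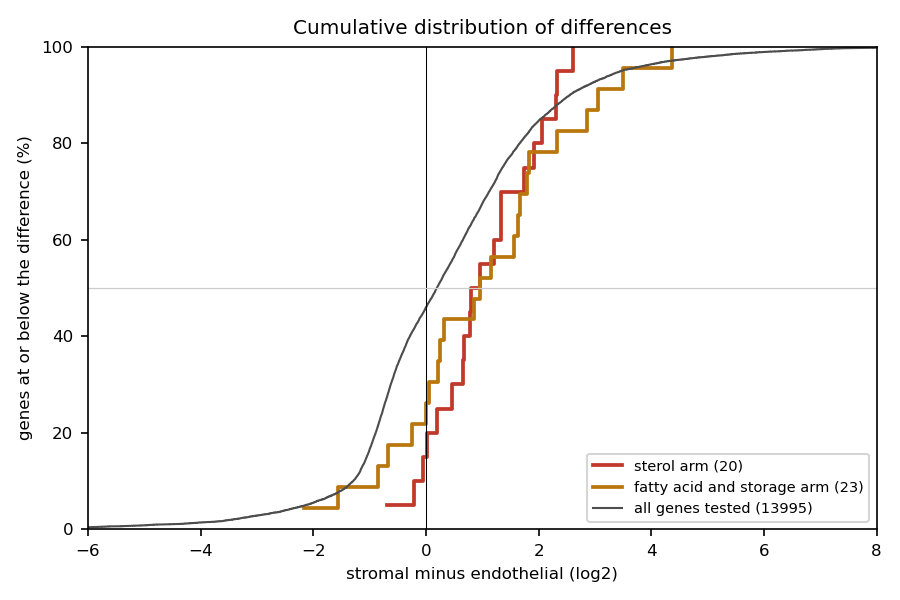
Cumulative share of genes (vertical axis, percent) at or below a given difference (horizontal axis, stromal minus endothelial, log2; differences outside -6 to 8 are not drawn) for the 20 sterol members, the 23 fatty acid and storage members and all 13995 genes tested. The arm medians of 0.88 and 0.96 lie to the right of the median over all genes, 0.19, while the upper end of the sterol arm stops at 2.61.

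None of the 6 enzymes from Hmgcs1 to Fdps was called. Hmgcs1, which encodes the synthase that commits acetyl-CoA units to the mevalonate route, had 11.20, 11.17, 11.30 and 10.13 on stromal 1 to 4, against 9.48, 10.52 and 10.88 on endothelial 1 to 3. The populations overlapped through stromal 4. The difference was 0.66 (95% interval -0.27 to 1.59, limma adjusted p = 0.176). Other probe sets of Hmgcs1 gave more: a pair of them differed by 1.54 and 1.47 (adjusted p = 0.00541 and 0.00623 over all probe sets) with no overlap, whereas a further one stood at 0.00. The brightest probe set carries the suffix _a, which marks probes shared by several transcripts of 1 gene. When probe sets with the suffixes _a, _s and _x were left out, of which _s and _x can match transcripts of more than 1 gene, Hmgcs1 was called higher (1.54, adjusted p = 0.00469).

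The next kinases and the decarboxylase gave small differences. Mvk, the mevalonate kinase gene, differed by 0.78 (-0.05 to 1.61, adjusted p = 0.0831), and its values of 7.35 to 7.95 on the stromal arrays overlapped those of 6.02 to 7.56 on the endothelial arrays. Pmvk, the phosphomevalonate kinase gene, had 8.52, 8.91, 8.91 and 8.44 on the stromal arrays, against 7.83, 8.18 and 7.69 on the endothelial arrays. Its groups did not overlap, and its difference of 0.79 (adjusted p = 0.0112) passed the p threshold without reaching the required size. The difference of Pmvk was 0.13 after a second quantile normalization (adjusted p = 0.603) and 0.15 after cyclic loess (adjusted p = 0.555). Mvd, the decarboxylase gene, stood at -0.21 (-0.88 to 0.46, adjusted p = 0.533).

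Idi1 was the one sterol member with groups apart in the other direction. It encodes the isomerase that makes dimethylallyl diphosphate. Idi1 had 7.71, 7.71, 7.20 and 7.27 on the stromal arrays, against 7.98, 8.16 and 8.35 on the endothelial arrays. Every stromal value lay under every endothelial value, with a difference of -0.69 (-1.17 to -0.21, adjusted p = 0.0186) that missed the required size. The other probe set of Idi1 stood at -1.14 and was called lower (adjusted p = 0.0201 over all probe sets). The represented probe set was also called lower after a second quantile normalization (-1.25) and after cyclic loess (-1.23). In other alternatives its adjusted p rose above 0.05. It was 0.0935 with array weights, 0.0992 with the replicate number as a block and 0.0723 without stromal 4 and endothelial 2. It was 0.0549 without stromal 3 and 0.0531 without endothelial 3.

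Fdps and Fdft1 showed how far the endothelial arrays differ among themselves. Fdps, which encodes farnesyl diphosphate synthase, had 6.61 to 7.11 on the stromal arrays, against 6.30, 6.14 and 8.16 on endothelial 1 to 3, and a difference of 0.02 (-1.05 to 1.08, adjusted p = 0.976). Fdft1, which encodes squalene synthase, had 8.95, 8.80, 8.61 and 8.38 on the stromal arrays, against 6.79, 9.21 and 6.05 on the endothelial arrays. Its stromal values were close together, and the overlap came from endothelial 2 alone. The difference of 1.34 did not pass (-0.17 to 2.85, adjusted p = 0.0998), and without endothelial 2 it was 2.27 (adjusted p = 2.13e-04). Over the 19 alternatives it ran from 0.32 to 2.37. Other probe sets of Fdft1 disagreed in sign. One gave 1.31 with overlapping groups, and another gave -0.62 with groups apart (adjusted p = 0.0238 over all probe sets). The last lay below the filter at -0.76.

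From squalene onward 4 enzymes were called higher on the stromal arrays. They were the only ones called among the 14 pathway enzymes, a share of 28.6%, against 30.9% called higher of all genes tested. The other 4 sterol members called higher were among the 6 genes of uptake and SREBP control. Sqle, the squalene epoxidase gene, had 9.57, 9.65, 9.14 and 9.32 on the stromal arrays, against 7.67, 8.19 and 8.80 on the endothelial arrays. Groups did not overlap, and the difference was 1.20 (2.30-fold, adjusted p = 0.00619). That call was lost after a second quantile normalization (0.59), after cyclic loess (0.57) and without endothelial 1 (0.93). Cyp51, the lanosterol 14-alpha demethylase gene, had 7.83, 7.87, 7.64 and 7.67 on the stromal arrays, against 6.44, 6.92 and 5.90 on the endothelial arrays. All stromal values lay above all endothelial ones, with a difference of 1.33 (2.52-fold, adjusted p = 0.00217). It was 0.74 and below the required size with the mean of its 3 probe sets, of which 2 lay below the filter.

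Ebp and Sc5d, the sterol isomerase and the desaturase that act near the end of the route, had the largest differences among the pathway enzymes. Ebp had 11.15, 11.21, 11.07 and 10.60 on the stromal arrays, against 9.33, 8.85 and 7.85 on the endothelial arrays. It was 5.03-fold higher (2.33 ± 0.35, SE, adjusted p = 6.86e-04). Sc5d had 8.997, 8.71, 8.73 and 9.14 on the stromal arrays, against 5.17, 7.71 and 5.98 on the endothelial arrays. No array of one population reached the other, and the difference was 2.61 ± 0.52 (6.11-fold, adjusted p = 0.00298). A further probe set of Sc5d gave 2.31, and the third, dimmer one gave -0.36, so that the mean of all 3 was 1.52. Ebp and Sc5d kept their call under all 19 alternatives run.

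The remaining enzymes did not pass. Lss, the lanosterol synthase gene, stood at 0.19 (-0.30 to 0.69, adjusted p = 0.444), and Nsdhl, the sterol 4-alpha-carboxylate dehydrogenase gene, at 0.47 (-0.23 to 1.16, adjusted p = 0.193). Dhcr7, which encodes the 7-dehydrocholesterol reductase that completes cholesterol, had 7.53, 7.56, 7.49 and 6.86 on the stromal arrays, against 6.33, 7.88 and 5.80 on the endothelial arrays. Endothelial 2 was the highest of the 7, and the difference of 0.68 (-0.38 to 1.75, adjusted p = 0.213) was 1.29 without it (adjusted p = 0.00395). Of 9 other sterol synthesis genes 6 were tested, of which 2 were called higher (33.3%, against 30.9% of all genes tested) and none lower. The first was Hsd17b7, which encodes a 3-ketosteroid reductase (1.20, adjusted p = 9.26e-04). Its call was lost when all its probe sets were averaged (0.60), without suffixed probe sets (0.60) and after either further normalization (0.59 and 0.60). The other was Msmo1, the sterol 4-alpha-methyl oxidase gene, at 6.83 ± 0.32 on the stromal arrays, against 5.30 ± 0.31 on the endothelial ones. All its endothelial values lay below the 40th percentile of their arrays, so it passed the filter through the stromal arrays alone.

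Among the genes of SREBP control, those of the INSIG and SCAP proteins were higher on the stromal arrays, and Srebf2, the gene of the sterol-specific factor, was not called. Insig1 had 9.14, 9.55, 9.21 and 8.43 on the stromal arrays, against 6.92, 6.19 and 7.21 on the endothelial arrays. It was 4.97-fold higher (2.31 ± 0.33, adjusted p = 5.35e-04) with groups apart. Insig2 had 11.02, 11.41, 11.35 and 10.90 on the stromal arrays, against 9.04, 9.12 and 9.61 on the endothelial arrays. Its difference of 1.91 (3.76-fold, adjusted p = 1.68e-04) is the smallest of its 3 probe sets, as the others gave 4.31 and 3.99, and without endothelial 3 the choice of probe set passes to one of these (3.94). Scap had 9.77, 9.77, 9.48 and 9.72 on the stromal arrays, against 7.64, 7.95 and 7.27 on the endothelial arrays. It was 4.19-fold higher (2.07 ± 0.21, adjusted p = 7.10e-05). Its other probe set lay below the filter at -0.51, and the mean of the pair, 0.78, missed the required size.

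Neither gene of an SREBP transcription factor was called. Srebf1, whose product drives fatty acid genes more than sterol genes, had 9.05, 9.11, 9.12 and 8.75 on the stromal arrays, against 7.96, 8.10 and 8.07 on the endothelial arrays. The groups were narrow and apart, with a difference of 0.96 (0.57 to 1.36, adjusted p = 0.00169) just short of the required size. Its single probe set does not separate the SREBP-1a and SREBP-1c transcripts in the annotation used. Srebf1 reached the required size with the replicate number as a block (1.05), without stromal 4 (1.05) and with array weights (1.04). After a second quantile normalization it stood at 0.29 (adjusted p = 0.196) and after cyclic loess at 0.31 (adjusted p = 0.171), which miss both thresholds. Srebf2, whose product drives sterol genes, had 8.21 to 8.75 on the stromal arrays, against 8.19 to 8.71 on the endothelial ones. Its difference was -0.05 (-0.55 to 0.45, adjusted p = 0.845). The Srebf2 difference was -0.71 after a second quantile normalization (adjusted p = 0.0266) and -0.70 after cyclic loess (adjusted p = 0.0276). Both passed the p threshold without reaching the required size. A further probe set of Srebf2 gave 0.98 with overlapping groups, which did not reach the required size.

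Vldlr, which encodes the receptor for very low density lipoprotein, had 7.46, 8.83, 8.35 and 7.28 on the stromal arrays, against 6.32, 5.26 and 7.12 on the endothelial arrays. It was called higher (1.74, adjusted p = 0.0165), but the call rests on 1 of 6 probe sets. The others that passed the filter gave 0.20, 0.74 and 0.18 and none was called. Leaving out probe sets with the suffixes _a, _s and _x changed the value to 0.20 (adjusted p = 0.672), and with the hybridisation-control level as a block, where endothelial 1 alone is set against the stromal arrays, it was 1.66 (adjusted p = 0.123).

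Genes of cholesterol transport and storage were described as a further list. Of 18 tested, 10 were called higher and 3 lower, against 30.9% and 16.1% of all genes tested. Of the 10, 1 that is not named here passed the filter through the stromal arrays alone. The list median was 1.43, and it was 0.97 after a second quantile normalization and 0.93 after cyclic loess. Lrp1, a large lipoprotein receptor gene, lay at 11.74 ± 0.22 on the stromal arrays, against 7.31 ± 0.90 on the endothelial arrays (4.44, adjusted p = 3.07e-05). Abca1, the cholesterol exporter gene, lay at 8.89 ± 0.16 on the stromal arrays, against 5.39 ± 0.52 on the endothelial ones, a mean below their 40th percentile, so its call rests on the stromal side and no fold or p is given. Osbpl5, an oxysterol-binding protein relative, differed by 2.78 (adjusted p = 1.71e-04). Toward the endothelial arrays stood Stard4, a sterol carrier gene, at -1.96 (adjusted p = 4.87e-05). Nceh1, a cholesteryl ester hydrolase gene, lay at 5.28 ± 0.24 on the stromal arrays, a mean below their 40th percentile, against 6.41 ± 0.23 on the endothelial ones, and no fold or p is given for it. The Stard4 call was lost with the mean of its probe sets (-0.79) and without endothelial 3, where another probe set is chosen (-0.21).

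The sequences before the transcription starts of these genes were examined because the sterol genes share a known regulatory layout, an SREBP site beside CCAAT and GC boxes. Promoter windows of RefSeq on build GRCm38.p6, from 250 bases before to 50 after a start, were matched by symbol for 36 of the 44 genes, of which 17 were in the sterol arm. The motif CCAAT, read on both strands, was present in a window of 16 of the 17 sterol genes and of 10 of 19 fatty acid and storage genes, against 42.2% of the 11208 tested genes with a window. The Sp1 box GGGCGG was present in 16 of 17 and 12 of 19, against 64.5%. The E-box CACGTG was present in 4 of 17 and 2 of 19, against 11.1%. The sterol response element, TCACNCCAC, was found in 1 of 17 sterol genes and 0 of 19 others, against 1.50%, and its looser form TCACNCNAC, which contains it, in 2 of 17 and 0 of 19, against 3.41%. Sterol genes had 1.53 windows on average, against 1.28 over all genes, which gives them more bases to match. The 11 pathway enzymes among them had 1.27 windows on average. Of these 11, CCAAT was present in 11, the Sp1 box in 10, the E-box in 2 and TCACNCNAC in 2. CCAAT was as frequent among all genes called higher (42.2%) as among all genes tested. A match is a description of the letters and says nothing on binding.

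The 250 bases before the start are shown for the synthase gene that carries the sterol response element, for Cyp51, Ebp and Sc5d, which had the largest differences among the enzymes with a window, and for Insig1. They run 5′ to 3′ on the gene's strand, with matches to TCACNCNAC, to the CCAAT motif, to the Sp1 box and to the E-box in capitals, on either strand. ATTGG is the CCAAT motif read on the opposite strand, and CCGCCC is likewise the Sp1 box.
Hmgcs1, chr13:119690101-119690350, plus strand: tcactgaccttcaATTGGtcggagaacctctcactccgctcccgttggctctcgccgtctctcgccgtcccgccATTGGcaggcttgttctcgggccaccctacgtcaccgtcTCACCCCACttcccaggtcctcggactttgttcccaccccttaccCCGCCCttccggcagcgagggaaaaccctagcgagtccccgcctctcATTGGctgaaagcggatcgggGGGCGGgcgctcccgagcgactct
Cyp51, chr5:4104698-4104947, minus strand: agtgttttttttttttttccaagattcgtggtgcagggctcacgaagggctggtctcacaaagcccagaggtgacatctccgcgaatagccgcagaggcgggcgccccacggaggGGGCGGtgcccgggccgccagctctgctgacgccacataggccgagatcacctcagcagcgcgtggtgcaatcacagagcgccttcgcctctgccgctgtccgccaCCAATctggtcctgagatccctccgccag
Ebp, chrX:8193513-8193762, minus strand: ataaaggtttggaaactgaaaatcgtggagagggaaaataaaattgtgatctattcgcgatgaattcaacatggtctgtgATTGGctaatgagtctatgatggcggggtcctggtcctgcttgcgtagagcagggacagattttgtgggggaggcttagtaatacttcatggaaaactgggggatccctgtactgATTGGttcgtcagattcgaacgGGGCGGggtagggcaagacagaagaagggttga
Sc5d, chr9:42264301-42264550, minus strand: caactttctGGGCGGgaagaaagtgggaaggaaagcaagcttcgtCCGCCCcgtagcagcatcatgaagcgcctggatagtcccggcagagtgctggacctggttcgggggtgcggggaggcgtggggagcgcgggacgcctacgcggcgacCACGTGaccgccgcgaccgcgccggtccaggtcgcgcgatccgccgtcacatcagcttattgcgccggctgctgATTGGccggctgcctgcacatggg
Insig1, chr5:28071162-28071411, plus strand: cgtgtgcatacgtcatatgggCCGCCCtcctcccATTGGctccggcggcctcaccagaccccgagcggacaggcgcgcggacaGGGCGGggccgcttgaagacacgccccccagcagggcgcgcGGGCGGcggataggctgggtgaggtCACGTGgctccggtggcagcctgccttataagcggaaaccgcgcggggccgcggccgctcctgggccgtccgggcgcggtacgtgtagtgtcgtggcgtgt
The Hmgcs1 stretch holds TCACCCCAC, which begins 137 bases before the start, between CCAAT boxes that begin 237, 176 and 45 bases before it. Ebp holds CCAAT boxes at 170 and 55 bases, and Cyp51, Sc5d and Insig1 hold 1 each, at 29, 24 and 216 bases. Sc5d and Insig1 hold the E-box as well, which reads the same on both strands. The stretches of Cyp51, Ebp, Sc5d and Insig1 show no match to TCACNCNAC. Other forms of the sterol response element were not searched for, so the lack of a match does not show that it is absent. Whether the motifs bear on the differences was not tested.

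In fatty acid synthesis proper the 4 genes went several ways. Acly, which encodes the enzyme that makes cytosolic acetyl-CoA from citrate, had 10.57, 10.78, 10.75 and 10.61 on the stromal arrays, against 11.40, 11.84 and 11.34 on the endothelial arrays. All stromal values lay below all endothelial ones, with a difference of -0.85 (-1.28 to -0.42, adjusted p = 0.00472) that missed the required size and reached it after cyclic loess (-1.13). Acaca, the gene of the cytosolic acetyl-CoA carboxylase that makes malonyl-CoA, had 9.81, 9.57, 9.58 and 9.39 on the stromal arrays, against 7.81, 8.18 and 8.06 on the endothelial arrays. It was 2.97-fold higher (1.57 ± 0.18, adjusted p = 1.73e-04) with groups apart. That call was lost after a second quantile normalization (0.95), after cyclic loess (0.94) and with the mean of its pair of probe sets (0.41), of which 1 lay below the filter.

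Acacb, which encodes the mitochondrial carboxylase whose product restrains fatty acid import, stood on the other side at -0.68 (-1.26 to -0.10, adjusted p = 0.0411), with overlapping groups. Its adjusted p was 0.167 with array weights, 0.112 with the replicate number as a block and 0.125 after cyclic loess. Fasn, the fatty acid synthase gene, had 8.69, 8.61, 8.72 and 8.15 on the stromal arrays, against 7.73, 8.18 and 6.84 on the endothelial arrays. Stromal 4 lay just below endothelial 2, and the difference of 0.96 (0.21 to 1.70, adjusted p = 0.0285) missed the required size. It reached that size without endothelial 2 (1.26), without stromal 4 (1.09) and with the replicate number as a block (1.09). It was 0.58 without endothelial 3 (adjusted p = 0.0671), 0.40 after a second quantile normalization (adjusted p = 0.347) and 0.34 after cyclic loess (adjusted p = 0.371).

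Of 18 other fatty acid synthesis genes tested 7 were called higher and 4 lower (38.9% and 22.2%), against 30.9% and 16.1% of all genes tested. Of the 7 higher, 2 passed the filter through the stromal arrays alone, and of the 4 lower, 1 through the endothelial arrays alone. The direction was mixed, and the list median of 0.36 was 0.00 after cyclic loess. Higher on the stromal arrays were Hacd3 (4.10, adjusted p = 0.00151) and Hacd2 (3.06, adjusted p = 3.57e-05), dehydratase genes of the elongation cycle, and Hsd17b12, its ketoreductase gene (1.89, adjusted p = 3.42e-04). With the mean of their probe sets the differences of Hacd3 and Hacd2 were 2.26 and 1.92. Lower were Elovl7, an elongase gene at 4.77 ± 0.22 on the stromal arrays, against 9.49 ± 0.40 on the endothelial ones, and Mid1ip1, whose product activates acetyl-CoA carboxylase (-2.15, adjusted p = 1.03e-04). Elovl7 passed the filter through the endothelial arrays alone, so no fold or p is given for it.

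Among the desaturase and elongase members the differences ran from -2.17 for Elovl6 up to 4.37 for Fads3. The desaturase genes Fads1, Fads2 and Fads3 are neighbours on chromosome 19, and they differed from one another. Fads3, whose product acts on sphingoid bases and some fatty acids, had 11.39, 11.51, 11.28 and 11.11 on the stromal arrays, against 7.27, 6.81 and 6.78 on the endothelial arrays. At 20.7-fold (4.37 ± 0.20, adjusted p = 8.97e-07) it had the largest difference of all members, and its 3 probe sets were all called higher, at 4.37, 4.06 and 1.48. Fads1, the delta-5 desaturase gene, had 10.25, 10.21, 9.95 and 10.23 on the stromal arrays, against 6.85, 7.59 and 6.86 on the endothelial arrays. It was 8.33-fold higher (3.06 ± 0.23, adjusted p = 1.34e-05), or 1.73 on the log2 scale with the mean of its pair of probe sets.

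Fads2, the delta-6 desaturase gene between them, had 6.95, 7.48, 7.03 and 6.83 on the stromal arrays, against 7.60, 6.72 and 7.66 on the endothelial arrays. Its groups overlapped, and the difference was -0.26 (-0.90 to 0.39, adjusted p = 0.434). Another probe set of Fads2, of nearly the same mean, stood at -1.46 and was called lower (adjusted p = 0.00259 over all probe sets). That probe set represents the gene without stromal 1, 2 or 3 and after a second quantile normalization, where Fads2 is called lower at -1.32 to -1.83.

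The stearoyl-CoA desaturases, which make oleate and palmitoleate, were called higher together. Scd2, the form that predominates outside the liver in mice, had 9.80, 10.27, 10.00 and 10.19 on the stromal arrays, against 6.99, 6.99 and 5.71 on the endothelial arrays. It was 11.3-fold higher (3.50 ± 0.33, adjusted p = 5.13e-05). Scd1, the form of liver and adipose tissue, had 7.95, 7.63, 7.43 and 8.44 on the stromal arrays, against 5.40, 6.31 and 6.53 on the endothelial arrays, and was 3.44-fold higher (1.78, adjusted p = 0.00235). In each gene 1 probe set carried the difference: the other probe sets of Scd2 gave 0.07 and 0.06, and the other of Scd1 gave -0.15. With the mean of the probe sets Scd2 stood at 1.21 and was still called, and Scd1 stood at 0.82 and was not.

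The elongases split. Elovl6, which extends palmitate to stearate, had 8.22, 8.16, 7.60 and 8.24 on the stromal arrays, against 9.49, 10.28 and 10.91 on the endothelial arrays. Every stromal value lay below every endothelial value, and it was 4.50-fold lower on the stromal arrays (-2.17 ± 0.34, adjusted p = 8.83e-04), with a further probe set at -1.64. When endothelial 1 alone represents its population the difference was -1.43. Elovl5, which extends polyunsaturated chains, had 11.55, 11.19, 11.00 and 11.67 on the stromal arrays, against 8.51, 11.45 and 8.59 on the endothelial arrays. Endothelial 2 lay within the stromal values, while endothelial 1 and endothelial 3 lay far below. The call for Elovl5 (1.83, adjusted p = 0.0378) was lost in 9 of 19 alternatives and the difference was 2.80 without endothelial 2. Elovl1, which extends saturated very long chains, stood at 0.85 (0.33 to 1.37, adjusted p = 0.0104) with groups apart, and another of its probe sets was called higher at 2.01.

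**Figure D3:**
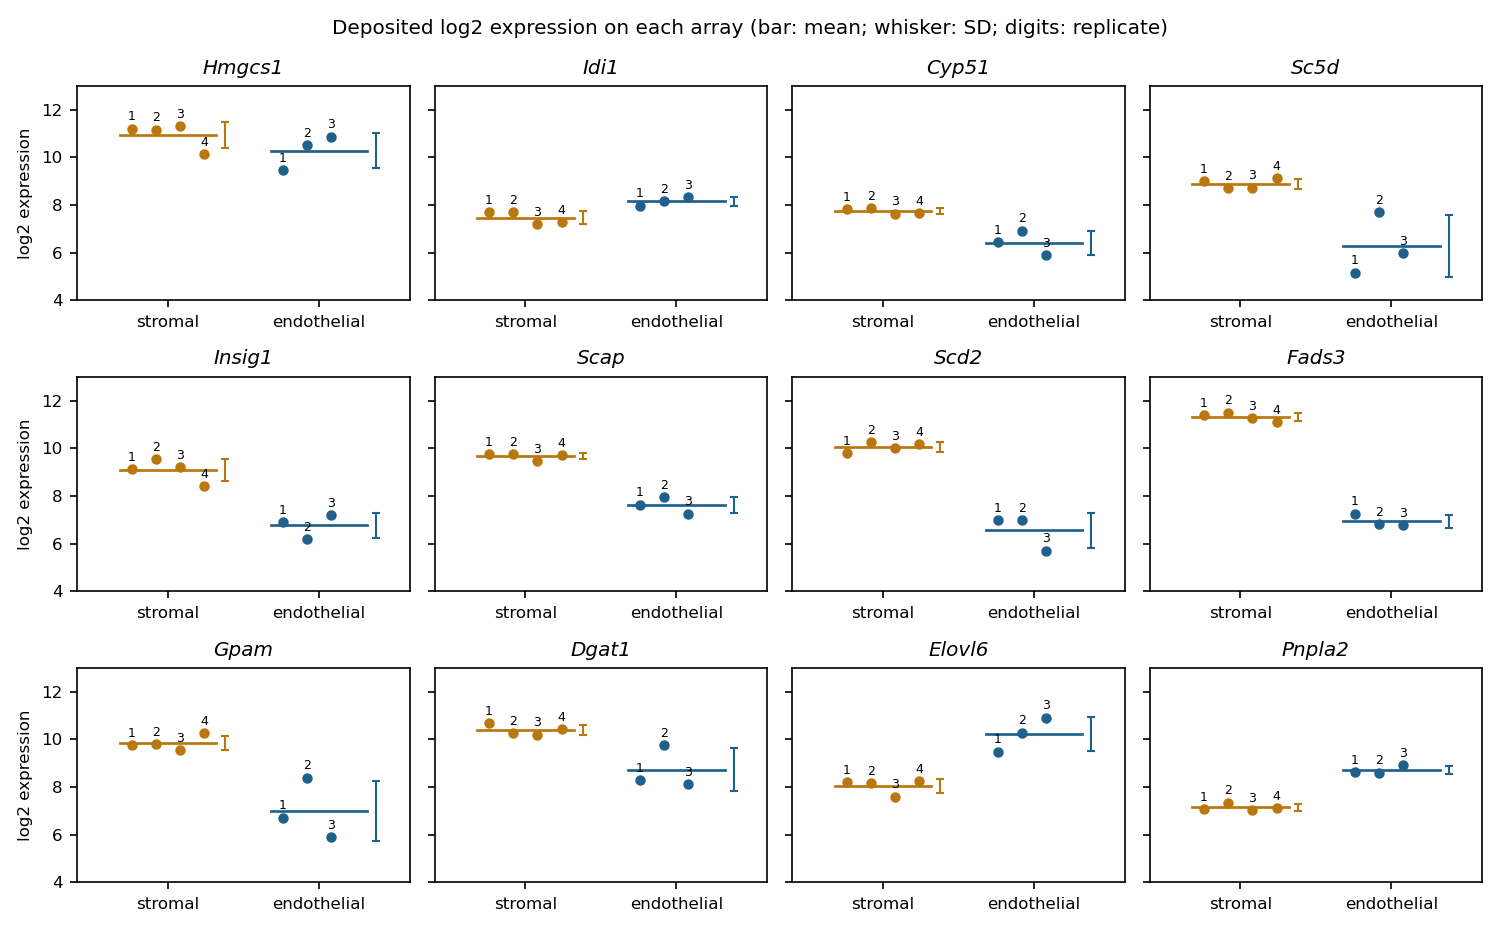
Deposited log2 expression (vertical axis) of 12 members on each array, with stromal arrays at the left and endothelial arrays at the right of each panel. Points are arrays, digits their replicate number, bars group means and whiskers the SD (n = 4 and n = 3). Stromal 4 lies below the other stromal arrays in Hmgcs1 and Insig1, and endothelial 2 stands above endothelial 1 and endothelial 3 in Sc5d, Gpam and Dgat1.

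Of 5 members that build triglyceride, 4 were called higher on the stromal side, against 30.9% of all genes tested. After a second quantile normalization 2 of the 5 were called higher, against 22.9% of all genes tested. After cyclic loess 3 were, against 23.5%. Gpam, the mitochondrial acyltransferase gene that starts glycerolipid synthesis, had 9.77, 9.81, 9.56 and 10.26 on the stromal arrays, against 6.71, 8.40 and 5.89 on the endothelial arrays. It was 7.21-fold higher (2.85 ± 0.52, adjusted p = 0.00198) with groups apart. A dimmer probe set of Gpam stood at -0.57, and the mean of the pair at 1.14. Agpat2, the acyltransferase gene for the next step, had 8.49, 8.72, 8.66 and 8.33 on the stromal arrays, against 7.17, 7.26 and 7.74 on the endothelial arrays. The difference of 1.16 (2.23-fold, adjusted p = 0.00168) was lost after either further normalization (0.56 and 0.55).

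Lpin1, which encodes a phosphatidate phosphatase, had 8.40, 8.51, 8.65 and 8.04 on the stromal arrays, against 6.48, 7.97 and 5.85 on the endothelial arrays. Endothelial 2 came close to stromal 4 without reaching it, and the difference was 1.63 (3.10-fold, adjusted p = 0.0130). The call was lost after a second quantile normalization (1.33, adjusted p = 0.0520) and, with a larger difference, under the hybridisation-control block (1.92, adjusted p = 0.0551). Dgat1, one of the genes for the last step to triglyceride, had 10.69, 10.27, 10.20 and 10.43 on the stromal arrays, against 8.28, 9.76 and 8.12 on the endothelial arrays. It was 3.19-fold higher (1.67 ± 0.39, adjusted p = 0.00578) and kept its call under all 19 alternatives. Dgat2, the other gene for that step and of an unrelated family, stood at 0.25 (-0.38 to 0.88, adjusted p = 0.435) with overlapping groups.

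Related genes outside the list did not share one direction. Of 10 other glycerolipid genes tested 4 were called higher and 1 lower, against 30.9% and 16.1% of all genes tested. Of the 4, 1 that is not named here passed the filter through the stromal arrays alone. The list median of 0.28 turned to -0.35 after a second quantile normalization and -0.31 after cyclic loess. Higher were Lclat1 (2.93, adjusted p = 0.00216), Agpat5 (1.87, adjusted p = 0.00805) and Agpat4 (1.86, adjusted p = 8.38e-05), all of acyltransferases. The Agpat5 difference was 1.03 with the mean of its probe sets, and its call was lost under the hybridisation-control block (1.52, adjusted p = 0.110). Lower was Lpin2, a relative of Lpin1, at 9.76 ± 0.11 on the stromal arrays, against 12.46 ± 0.20 on the endothelial ones (-2.70, adjusted p = 5.64e-06). Lpin1 and Lpin2 thus passed the test in opposite directions.

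The lipolysis gene tested was called lower. Pnpla2, which encodes adipose triglyceride lipase, had 7.08, 7.35, 7.04 and 7.11 on the stromal arrays, against 8.63, 8.60 and 8.91 on the endothelial arrays. It was 2.96-fold lower on the stromal arrays (-1.57 ± 0.17, adjusted p = 1.31e-04), its other probe set stood at -1.34, and the call held under all 19 alternatives. The genes of a coactivator and of an inhibitor of this lipase were both called higher. Abhd5, its coactivator gene, lay at 9.20 ± 0.37 against 6.77 ± 1.19 (2.44, adjusted p = 0.00353, and 2.21 with adjusted p = 0.0515 under the hybridisation-control block). G0s2, its inhibitor gene, lay at 11.85 ± 0.32 against 8.42 ± 1.67 (3.43, adjusted p = 0.00261). Hilpda, another inhibitor gene, stood at 0.41 (adjusted p = 0.160) and was not called. They belong to a list of lipid droplet and fatty acid uptake genes. Of that list 8 of 16 tested were called higher and 2 lower, against 30.9% and 16.1% of all genes tested. The largest difference there was that of Lpl, the lipoprotein lipase gene (7.04), and the lower ones were Plin5, whose droplet coat protein binds the lipase and its coactivator (-1.92, adjusted p = 0.00208), and Mgll, the monoglyceride lipase gene (-1.47, adjusted p = 0.0211). Mgll lost its call without stromal 4, without endothelial 1 (-0.91) and without suffixed probe sets (-0.83), and Plin5 stood at -1.18 without suffixed probe sets. Cidec and Cidea, droplet genes of mature adipocytes, and the uptake receptor gene Cd36 lay below the filter.

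Of the 5 members of fatty acid activation and import analysed, 1 was called. Acsl3, which encodes an acyl-CoA synthetase of lipid droplets, had 7.29, 7.23, 7.31 and 7.49 on the stromal arrays, against 5.09, 5.24 and 4.67 on the endothelial arrays. Every endothelial value lies below the 40th percentile of its array, so that Acsl3 passed the filter through the stromal arrays alone. No fold or p is given for it, and 10 of the 11 members of its arm called higher are others. Acsl4, which prefers arachidonate, stood at 0.31 (-0.37 to 0.999, adjusted p = 0.365), and Acsl5, of mitochondria and endoplasmic reticulum, at 0.22 (-0.32 to 0.76, adjusted p = 0.422).

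Cpt1a, which encodes the carnitine acyltransferase that admits fatty acids to mitochondria, had 8.62, 8.49, 8.09 and 8.36 on the stromal arrays, against 8.43, 8.23 and 8.51 on the endothelial arrays. Its difference was 0.00 (-0.44 to 0.44, adjusted p = 0.996). It was -0.66 after a second quantile normalization (adjusted p = 0.0295) and -0.65 after cyclic loess (adjusted p = 0.0368), and a further probe set stood at -0.45. Cpt2, its partner in the inner membrane, stood at 0.05 (-0.67 to 0.78, adjusted p = 0.890). Of 4 further acyl-CoA synthetase genes tested none was called higher and 1 lower, Slc27a2, which encodes a very long chain synthetase and transporter and lay at 4.60 ± 0.16 on the stromal arrays, against 9.50 ± 0.82 on the endothelial ones. It passed the filter through the endothelial arrays alone, so no fold or p is given.

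The enzymes that follow import were taken from a further list. Of 19 fatty acid oxidation genes tested 10 were called higher and 1 lower, against 30.9% and 16.1% of all genes tested. Of the 10, 2 passed the filter through the stromal arrays alone. The list median of 1.11 was 0.51 after a second quantile normalization and 0.63 after cyclic loess. After either of these 6 of the 19 were called higher, against 22.9% and 23.5% of all genes tested. Ehhadh, a peroxisomal enzyme gene, lay at 8.07 ± 0.35 on the stromal arrays, against 4.87 ± 0.34 on the endothelial ones. It passed the filter through the stromal arrays alone, so no fold or p is given. Etfdh, which passes electrons from acyl-CoA dehydrogenases to ubiquinone, differed by 2.55 (adjusted p = 7.50e-04, and 1.21 with the mean of its probe sets). Hadhb, the beta subunit gene of the trifunctional protein, differed by 2.43 (adjusted p = 0.00764), but by 0.93 without stromal 4, where another probe set is chosen. Etfb, the electron transfer flavoprotein beta subunit gene, stood at -1.46 (adjusted p = 9.94e-04), opposite in sign to Etfdh in the same chain.

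The endothelial arrays spread more than the stromal arrays in most members. The SD over the endothelial arrays was the larger one in 39 of 43 members (90.7%), against 76.3% of all genes tested, and the median SD over the members was 0.25 among stromal and 0.53 among endothelial arrays. Stromal values ranged over more than 1 log2 unit in 4 members and endothelial values in 24. Endothelial 2 was the highest endothelial array in 19 members, endothelial 3 in 20 and endothelial 1 in 4. Endothelial 2 stood nearest the stromal values in Fdft1, Sc5d, Dhcr7, Elovl5, Gpam, Lpin1 and Dgat1. The same array had the highest means of monocyte and macrophage markers (8.54, against 7.64 and 7.66 on endothelial 1 and 3), of B lineage markers (8.88, against 7.48 and 7.18) and of neutrophil precursor markers (12.55, against 11.86 and 9.54). The 3′ minus 5′ difference for the Gapdh control was 3.07 to 3.51 over the stromal arrays, against 3.50 on endothelial 2 and 2.54 and 2.37 on endothelial 1 and 3. The part these play in the members' values was not tested. Without stromal 4 and endothelial 2 the sterol arm had 12 of 20 members called higher and the fatty acid and storage arm 12 of 23, while the share over all genes tested was 35.1%.

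Probe sets of the same gene often disagreed in size. Of the 104 probe sets 83 passed the filter, and 31 were called higher and 6 lower, against 28.3% and 15.0% of the 24519 probe sets tested in all. Of 44 genes 34 had more than 1 probe set, up to 6, and no gene had probe sets called in opposite directions. In Hmgcs1, Elovl1, Idi1 and Fads2 the brightest probe set was not called while another was. The sizes above therefore hold for the probe set used.

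**Figure D4:**
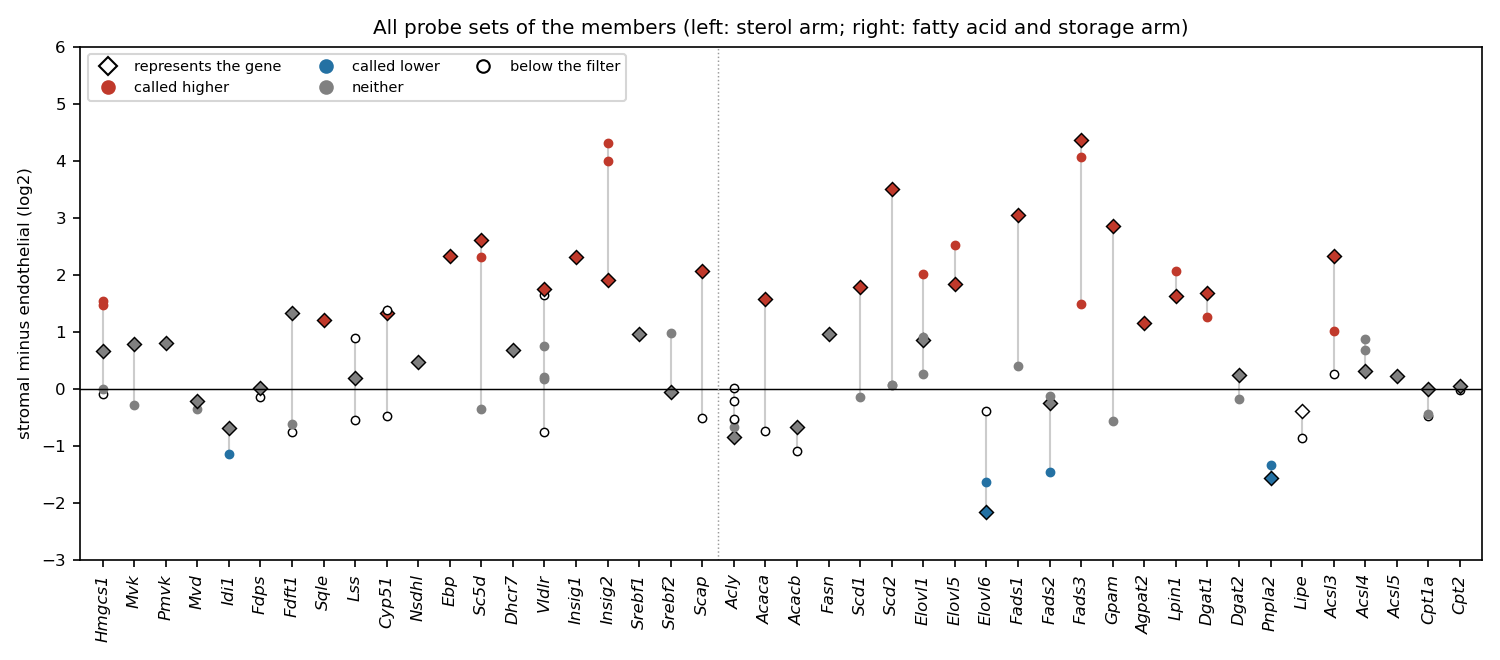
Difference (vertical axis, stromal minus endothelial, log2) of every probe set of the 44 genes, in pathway order from left to right, with the 20 sterol genes left of the dotted line. Diamonds mark the probe set that represents a gene, red and blue those called higher and lower over all probe sets, grey those called neither way, and open symbols those below the filter. Insig2, Scd2, Fads1 and Gpam show wide gaps between probe sets, and Fads3 has 3 called in one direction.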

How the data were processed

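Sorted-cell RNA from 7 samples was measured on Affymetrix arrays. Per the submitters' processing notes, the deposited log2 values were made by the authors with the RMA method in Affymetrix Expression Console 1.1, whose steps are background correction, quantile normalization and a summary per probe set. Which arrays were normalized together is not given in the sources used here. All 7 columns were used and none were identical. Correlations within a population were 0.90 to 0.99. No depth applies to arrays, and their number limits the precision.

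Gene symbols came from a 2016 platform annotation, in which 34945 probe sets had 1 symbol, 932 several and 9160 none, beside 64 controls. The brightest probe set represented each of 18193 genes, and 4198 dim genes were set aside. Differences were tested with limma 3.58.1 (lmFit, eBayes, no covariates) in R 4.3.3, adjusted over 13995 genes, and again over 24519 probe sets. The procedure was tested on simulated data. The members, lists, tests and alternatives were chosen with earlier results of these data known. Any member may be named. Of each further list the text names at most 3 called genes in the direction with more calls and at most 2 in the opposite one, by size and with groups apart. The deviations of same-numbered arrays from their group means correlated weakly (0.00, 0.03 and 0.12), and the main test did not pair them. With 3 endothelial arrays these correlations cannot tell whether a number marks a shared animal or sort. Alternatives were other filters, probe set rules and normalizations, a trended and robust eBayes, weights per array, the replicate number or the hybridisation-control level as a block, and arrays left out.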

Additional observations from a re-analysis of the deposited data

Results flagged for a closer look

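Among the 4 stromal arrays, 1 array stood far from the others, relative to their range, in 4 of 44 members. Chance flags about 1 group in 20 by Dixon's test at the 95% level. Hmgcs1 lay at 10.13 on stromal 4 against 11.17 on the nearest array, and Dhcr7 at 6.86 on stromal 4 against 7.49. Elovl6 lay at 7.60 on stromal 3 against 8.16, and Fads1 at 9.95 on stromal 3 against 10.21. Stromal 4 is also the stromal array with the highest mean of megakaryocyte and platelet markers (8.45, against 5.75 to 6.45 on stromal 1 to 3), and the part of these transcripts in its values was not tested.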

How the results depend on the processing

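No difference of a called member changed sign under the 19 alternatives, and 12 of the 21 called members kept their call under all of them. The other 9 lost it in 1 to 9 alternatives, and 11 of the 22 uncalled members were called under at least 1, in the direction they had as reported. When all probe sets of a gene were averaged the sterol arm had 5 of 19 tested members called higher, against 26.0% of all genes tested. The median of the fatty acid and storage arm was then 0.82. Without probe sets of the suffixes _a, _s and _x the sterol median was 1.20 over the 17 members left. After a second quantile normalization 1 sterol member was called lower, 7 fatty acid and storage members were called higher, and the medians were 0.46 and 0.56. After cyclic loess 1 sterol member was called lower and the medians were 0.45 and 0.55. Over all genes these scalings gave 3206 higher and 3014 lower calls (51.5% of calls higher) and 3270 and 2388 (57.8%), against 4319 and 2252 (65.7%) as deposited. With the hybridisation-control block, and with the 5 arrays of like level, endothelial 1 alone is set against the stromal arrays, and the medians were 1.18 and 1.23. Without stromal 4 and endothelial 2 they were 1.15 and 1.17. Leaving out 1 array at a time gave 8 to 10 sterol members called higher and 0 lower, 10 to 12 fatty acid and storage members higher and 2 to 3 lower, medians of 0.83 to 1.09 and 0.90 to 1.09, and 32 to 41 of the members' probe sets called, against 37 as reported. With the replicate block 9 sterol members were called higher, and the fatty acid and storage counts stayed at 11 and 2, with medians of 0.99 and 1.09. Srebf1 and Fasn gained a call and Elovl5 lost one (adjusted p = 0.0640). Levels near the floor of the arrays limit differences of dim genes. The causes of these changes were not tested beyond what is stated.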
